A study of Mus musculus with 24 samples.

Results

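The collagen genes of the mouse liver were followed across 3 inbred strains and 2 diets. Members were taken by name: every gene probe of the array whose gene symbol has the form Col, a number, a and a number. This gave 43 genes, measured by 68 probes on 77 spots, among the 23859 genes named on the array and its 55681 probes. They comprised 11 fibrillar collagens, 6 basement membrane collagens and 26 of other types. Total RNA of frozen liver from 24 male mice was hybridised to 1-colour Agilent arrays, 1 mouse per array and 4 arrays in each of 6 groups. The strains were A/J, C3H/HeJ and WSB/EiJ, all aged 20 weeks at the end. From 8 weeks of age, for 12 weeks, the deficient groups ate an iron-supplemented diet of defined amino acids with 0.17% methionine and without choline or folic acid. In the control groups methionine was at 0.4% and the same diet also carried folic acid at 2 mg/kg and choline bitartrate at 0.3%, so the base diet was common to all 6 groups. The study's title names strain differences in the severity of diet-induced liver injury as its subject. The labels number the arrays of a group from 1 to 4 and do not tie a number to a cage or day; p-values measure the spread between these mice.

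Collagens are triple-helical proteins of the extracellular matrix. The fibrillar types I, III and V assemble into the fibres of scar tissue, type IV forms the network of basement membranes, and type VI forms beaded filaments beside cells. Fibril-associated collagens, such as types XII, XIV and XVI, sit on the surface of fibres and carry interruptions in the helix. In an injured liver the fibrillar collagens come largely from activated stellate cells and portal fibroblasts, while hepatocytes make type XVIII collagen, whose C-terminal piece is endostatin. A long-lasting lack of choline and folate leads to a fatty liver with inflammation and fibrosis in rodents.

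The 250 bases before the transcription start of 4 members are shown because these genes mark the opposite ends of the response: Col1a2, Col3a1 and Col6a3 were among the collagens that rose in 2 strains, and Col27a1 fell in all 3. The sequences are from RefSeq on GRCm38.p6, at chr6:4505368-4505617 and chr1:45311288-45311537 on the plus strand, chr1:90843972-90844221 on the minus strand and chr4:63215162-63215411 on the plus strand. Capitals mark matches, read on either strand, to the letters of the CCAAT box, to GGGCGG as the core of a GC box, to TATAAA as the core of a TATA box, and to TGACTCA as the motif bound by AP-1.
Col1a2: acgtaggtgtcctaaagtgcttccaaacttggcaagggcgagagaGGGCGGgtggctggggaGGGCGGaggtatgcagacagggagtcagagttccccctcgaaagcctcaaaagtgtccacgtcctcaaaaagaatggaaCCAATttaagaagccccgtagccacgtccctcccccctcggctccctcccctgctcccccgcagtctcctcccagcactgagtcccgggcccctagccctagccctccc
Col3a1: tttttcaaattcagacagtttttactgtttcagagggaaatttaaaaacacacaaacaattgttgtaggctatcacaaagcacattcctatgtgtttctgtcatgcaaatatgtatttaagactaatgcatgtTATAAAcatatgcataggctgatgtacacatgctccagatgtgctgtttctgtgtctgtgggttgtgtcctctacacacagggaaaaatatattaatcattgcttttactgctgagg
Col6a3: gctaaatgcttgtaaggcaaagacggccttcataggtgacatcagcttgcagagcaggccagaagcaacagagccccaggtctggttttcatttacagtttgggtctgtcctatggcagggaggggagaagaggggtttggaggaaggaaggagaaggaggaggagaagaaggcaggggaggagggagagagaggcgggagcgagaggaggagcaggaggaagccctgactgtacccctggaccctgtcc
Col27a1: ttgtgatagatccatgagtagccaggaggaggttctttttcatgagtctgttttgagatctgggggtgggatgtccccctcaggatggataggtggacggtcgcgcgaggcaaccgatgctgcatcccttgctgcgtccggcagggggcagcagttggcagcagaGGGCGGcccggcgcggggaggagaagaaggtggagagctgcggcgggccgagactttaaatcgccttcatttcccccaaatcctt
Of these 4 windows, that of Col1a2 held 1 CCAAT and 2 GGGCGG, that of Col3a1 held 1 TATAAA, that of Col27a1 held 1 GGGCGG, and that of Col6a3 held none of the letters searched. RefSeq's table had such a window for 35 of the 43 genes, 38 windows in all. GGGCGG stood in 57.9% of the collagen windows and in 32.7% of all 32851 windows of the table. CCAAT stood in 34.2% and 33.8%, TATAAA in 13.2% and 12.4%, and TGACTCA in 2.63% and 4.46%. GGGCGG was in 10 of 14 windows of the collagens that rose in WSB/EiJ on the deficient diet and in 5 of 8 of those that fell, so most windows of both sets held these letters. A match is a description of the letters and not a bound site.

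Levels are log2 signals relative to the 75th percentile of the same array, so that 0 is the brightness of that percentile and a step of 1 is a 2-fold difference. Between 44.4% and 56.0% of the gene spots of an array were well above background by the scanner software's flag, and no spot was saturated. A gene entered the tests when, in 1 group or more, its probe passed that flag in each of the 4 arrays. This kept 15551 genes, 27 of the 43 collagens among them: 8 of 11 fibrillar, 5 of 6 basement membrane and 14 of 26 others. The other 16, with the cartilage collagens Col2a1, Col9a1, Col9a3, Col10a1 and Col11a1 among them, met this in no group. Of the 16, Col13a1 came closest, with 17 of 24 arrays above background. A member that passed through the group where it was high had to differ between groups, so counts over the 27 describe and do not support a direction.

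2 A/J arrays were picked out by their levels. Array 4 of the A/J control group was the highest of its group for 17 of the 27 collagens. Array 4 of the A/J deficient group was the lowest of its group for 12 and the highest for 7. A/J control 3 was the lowest of its group for 12 too. A/J control 4 also had the highest summed level in its group of 3 lists of other cells: portal fibroblast markers at 3.75 against 2.08 to 2.37 in the other arrays, smooth muscle markers at 6.0 against 5.07 to 5.30, and the mesothelial pair at 1.34 against -2.07 to 0.03. The fat marker Cfd, the only gene tested of its list, was at 3.18 in that array and between -3.19 and -0.49 in the others of the group. In the deficient group, A/J deficient 4 had the lowest summed portal fibroblast level, 2.43 against 2.80 to 3.36. The stellate cell sum of A/J control 4, 6.95, lay within the 6.43 to 7.04 of the other controls, and that of A/J deficient 4 was the lowest of its group, 7.08 against 7.12 to 7.40. The part of other cells in these collagen levels was not tested. A/J calls of collagens that change without both arrays are given beside the result, and the marker counts were not recomputed without them. Both arrays were picked by these same levels, so leaving out a high control and a low deficient array moves the A/J diets apart by choice. The p-values without them are therefore descriptions and not tests of a rise in A/J. In the other strains, array 4 of the C3H/HeJ deficient group was the lowest of its group for 17 collagens and array 3 of the WSB/EiJ deficient group for 16. Among the controls, C3H/HeJ control 4 was the lowest for 13 and WSB/EiJ control 4 the highest for 14, so such counts were not particular to the 2 A/J arrays.

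On the deficient diet the main fibrous collagens rose steeply in WSB/EiJ and C3H/HeJ livers. Of the 27 tested members, 16 rose and 9 fell in WSB/EiJ at an adjusted p under 0.05, where 74.4% of all genes tested passed (25.4% upward and 49% downward). In C3H/HeJ 14 rose and 3 fell, where 29.6% of all genes passed (14.8% in each direction). In A/J 1 rose and 2 fell, where 6.1% passed (3.36% upward and 2.75% downward). The median log2 change of the 27 collagens was 1.72 in WSB/EiJ, 0.69 in C3H/HeJ and 0.37 in A/J, where the median of all genes tested was -0.29, -0.12 and -0.05. All deficient arrays lay above all controls for 16 collagens and below them for 9 in WSB/EiJ (23.2% and 45.2% of all genes), for 13 and 4 in C3H/HeJ (14.9% and 17.9%) and for 4 and 2 in A/J (8.44% and 9.34%). Without both arrays numbered 4, 11 collagens rose in A/J and 2 fell, Col20a1 and Col27a1 as with all arrays, where 8.31% of all genes rose and 8.24% fell. Those arrays were picked by their collagen levels, so the gain in rises follows in part from the choice. Scaling the arrays on spiked-in control RNA in place of the 75th percentile shifted the median of all genes up by 0.87 in WSB/EiJ, 0.49 in C3H/HeJ and 0.36 in A/J. With that scaling the collagens called were 18 higher and 5 lower in WSB/EiJ (62.1% and 8.44% of all genes), 15 and 0 in C3H/HeJ (32.7% and 3.1%), and 7 and 2 in A/J (19.8% and 0.881%). The falls below are therefore relative to the array's other genes.

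Of the fibrillar class, 5 of the 8 tested rose and 2 fell in both WSB/EiJ and C3H/HeJ, and in A/J none rose and 1 fell. Of all genes tested, 25.4% rose and 49% fell in WSB/EiJ, 14.8% went each way in C3H/HeJ, and 3.36% rose and 2.75% fell in A/J. Col1a1, the alpha 1 chain of type I collagen, was measured at chr11:94813115-94813174 (mm9, the build of the file headers). On the control diet its levels were 0.61, -0.26, 0.45 and 0.31 in WSB/EiJ, 0.42, 0.39, -0.77 and -0.51 in C3H/HeJ and -1.05, -0.10, -0.71 and 1.66 in A/J. On the deficient diet they were 6.22, 6.06, 4.97 and 5.97 in WSB/EiJ, 4.5, 4.68, 4.13 and 2.19 in C3H/HeJ and 2.72, 1.34, 2.82 and 0.37 in A/J. The diets did not overlap in WSB/EiJ or C3H/HeJ, and in A/J they overlapped through the arrays numbered 4. Col1a1 was 46.2-fold higher on the deficient diet in WSB/EiJ (log2 change 5.53 ± 0.30 (SE), adjusted p = 1.84e-06) and 15.9-fold in C3H/HeJ (3.99 ± 0.55, adjusted p = 0.00189). In A/J the log2 change was 1.86 ± 0.73 with adjusted p = 0.155, and 2.92 with adjusted p = 0.0175 without both arrays numbered 4. Those arrays were picked by their levels, so the second p-value does not test a rise.

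Col1a2, the alpha 2 chain that joins Col1a1 in type I collagen, was measured at chr6:4490619-4490678 (mm9). Its control levels were 1.35, 1.25, 1.22 and 1.86 in WSB/EiJ, 1.45, 1.10, 0.84 and 0.64 in C3H/HeJ and 1.49, 1.23, 1.19 and 2.24 in A/J. Its deficient levels were 5.91, 5.77, 5.12 and 5.48 in WSB/EiJ, 4.38, 4.46, 3.79 and 2.71 in C3H/HeJ and 3.1, 2.64, 3.38 and 1.96 in A/J. As for its partner chain, the C3H/HeJ deficient array numbered 4 was the lowest of its group and still above every C3H/HeJ control. The change was 17.8-fold in WSB/EiJ (adjusted p = 1.26e-06), 7.10-fold in C3H/HeJ (adjusted p = 0.00166) and 2.35-fold in A/J, where adjusted p = 0.0748 missed the threshold and became 0.0119 without both arrays numbered 4. In A/J the call was also made when A/J control 4 alone (adjusted p = 0.0463) or A/J deficient 4 alone (adjusted p = 0.027) was left out. Both arrays were picked by collagen levels, so the p-values without either or both describe and do not test a rise in A/J.

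Col3a1, the single chain of type III collagen, was read at chr1:45405589-45405648 (mm9). Control levels were 1.88, 1.48, 1.79 and 1.93 in WSB/EiJ, 1.74, 1.60, 1.25 and 1.05 in C3H/HeJ and 1.18, 1.47, 1.06 and 2.98 in A/J. Deficient levels were 6.32, 5.91, 5.03 and 6.0 in WSB/EiJ, 4.73, 5.11, 4.41 and 3.30 in C3H/HeJ and 3.56, 2.49, 3.80 and 1.98 in A/J. The rise was 16.5-fold in WSB/EiJ (log2 change 4.04 ± 0.26, adjusted p = 4.11e-06) and 7.87-fold in C3H/HeJ (2.98 ± 0.36, adjusted p = 0.00114). In A/J the log2 change was 1.28 ± 0.54 (adjusted p = 0.181), and 2.04 without both arrays numbered 4 (adjusted p = 0.021). Those arrays were picked by their levels, so the second p-value does not test a rise.

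**Figure D1:**
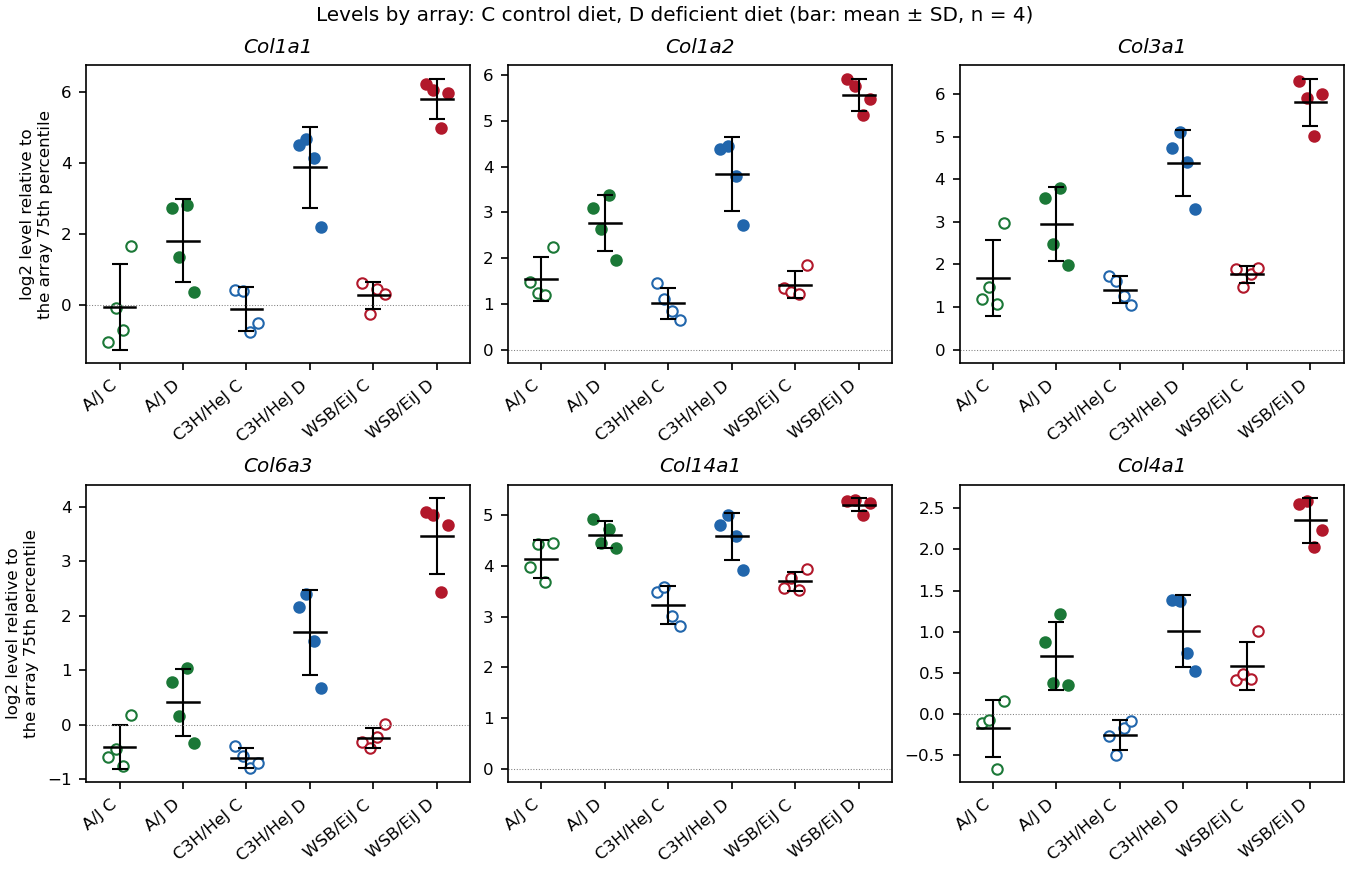
Level of 6 collagen genes in each of the 24 arrays; the y axis is the log2 level relative to the array's 75th percentile, open points are control diet (C) and filled points deficient diet (D), and bars are mean ± SD of 4 arrays. In WSB/EiJ all deficient arrays of these genes lie above all controls (Col1a1 from 4.97 to 6.22 against -0.26 to 0.61), while in A/J Col1a1, Col1a2, Col3a1, Col6a3 and Col14a1 overlap between diets.

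Type V collagen, which nucleates the fibres of types I and III, did not move as a unit. Col5a1, its main chain, rose 3.59-fold in WSB/EiJ (1.92 ± 0.24 against 0.08 ± 0.18, mean ± SD, n = 4; adjusted p = 1.07e-05) and 2.73-fold in C3H/HeJ (adjusted p = 0.027). The C3H/HeJ groups overlapped, and the call was lost on leaving out any of 6 of the 8 arrays (adjusted p up to 0.0757). Col5a3 (chr9:20574592-20574651, mm9), a chain of narrower tissue distribution, moved in opposite directions. Its levels were 2.50, 2.46, 2.63 and 2.08 in A/J controls, 3.07, 2.36, 2.64 and 2.67 in C3H/HeJ controls and -2.19, -1.34, -1.73 and -0.94 in WSB/EiJ controls. On the deficient diet they were 2.40, 2.01, 1.79 and 2.30 in A/J, 2.25, 2.00, 2.30 and 2.13 in C3H/HeJ and 0.75, 0.84, 1.10 and 0.85 in WSB/EiJ. All WSB/EiJ arrays were below all arrays of the other strains, and all WSB/EiJ deficient arrays were above their controls. Col5a3 rose 5.41-fold in WSB/EiJ (adjusted p = 4.37e-05) and fell by 0.51 on the log2 scale in C3H/HeJ (adjusted p = 0.0437), a call lost on leaving out any of 7 of the 8 C3H/HeJ arrays and with spike-in scaling (-0.02). The log2 change in A/J was -0.29 (adjusted p = 0.312). The diet effect in WSB/EiJ exceeded that in C3H/HeJ by 2.95 ± 0.30 (adjusted p = 3.01e-05) and that in A/J by 2.73 ± 0.32 (adjusted p = 1.9e-05).

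Col5a2 (chr1:45431204-45431263, mm9), the chain that usually pairs with Col5a1, showed the reverse. Its levels were 2.63, 1.78, 2.17 and 1.31 in WSB/EiJ controls and -0.39, 0.20, 0.46 and -0.17 in WSB/EiJ deficient arrays, with no overlap. In C3H/HeJ they were -5.68, -6.16, -5.32 and -5.74 in controls, none of them well above background, and -2.72, -2.70, -3.64 and -4.29 on the deficient diet. In A/J they were -5.12, -4.34, -5.77 and -3.88 in controls and -4.10, -4.94, -3.79 and -5.77 on the deficient diet, with 1 and 2 arrays of 4 well above background. Col5a2 fell by 1.95 ± 0.30 on the log2 scale in WSB/EiJ (adjusted p = 0.000444) and was at least 1.58-fold higher on the deficient diet in C3H/HeJ (adjusted p = 0.00295). A bound of this kind sets the bright group's mean against the higher of the dim probe's signal and the faintest signal well above background on each array. The diet effect in WSB/EiJ was lower than that in C3H/HeJ (fitted log2 difference -4.33 ± 0.50, adjusted p = 6.49e-05); the fit takes the C3H/HeJ controls at signals not well above background, so the size of this difference is not a measured value. A base difference between a strain and the array's reference sequence under a probe would enter any level compared between strains, and was not tested here.

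Col27a1, a fibrillar collagen best known from cartilage, fell in every strain. It was measured at chr4:62995485-62995544 (mm9). Control levels were 0.71, 1.04, 1.48 and 1.82 in WSB/EiJ, 0.77, 0.66, 0.61 and 0.15 in C3H/HeJ and -0.24, -0.25, -0.11 and -0.13 in A/J. Deficient levels were -1.86, -2.21, -2.38 and -1.77 in WSB/EiJ, -0.39, -1.32, -0.27 and -0.49 in C3H/HeJ and -1.27, -0.88, -1.22 and -0.90 in A/J. No strain's diets overlapped, the A/J arrays numbered 4 included. It fell by 3.32 ± 0.25 on the log2 scale in WSB/EiJ (9.98-fold, adjusted p = 9.07e-06), by 1.16 ± 0.25 in C3H/HeJ (adjusted p = 0.0107) and by 0.89 ± 0.11 in A/J (adjusted p = 0.00857). With spike-in scaling the log2 changes were -2.45, -0.67 and -0.53, and the C3H/HeJ call was lost (adjusted p = 0.061). The fall in WSB/EiJ was larger than in A/J by a log2 difference of -2.43 ± 0.29 (adjusted p = 2.21e-05) and than in C3H/HeJ by -2.15 ± 0.37 (adjusted p = 0.00128). Col11a2, the remaining fibrillar member tested, passed the test in no strain, with log2 changes of 0.55 in A/J, 0.07 in C3H/HeJ and -0.19 in WSB/EiJ.

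**Figure D2:**
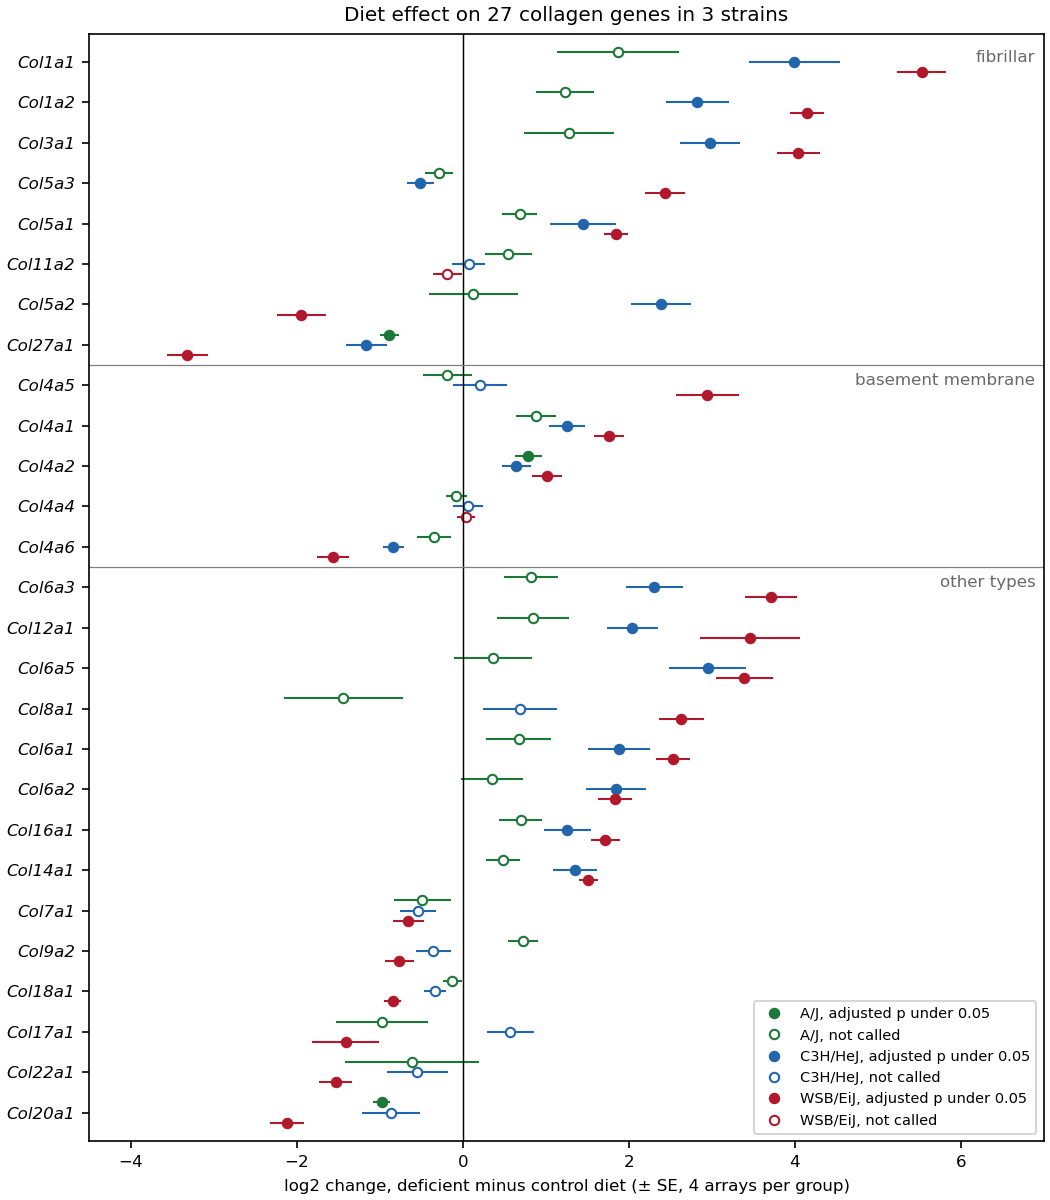
Diet effect on each of the 27 tested collagens; the x axis is the log2 change, deficient minus control, with SE from 4 arrays per group, filled points have an adjusted p under 0.05, and lines part fibrillar, basement membrane and other types. Points of genes with a group below background (Col5a2, Col6a5, Col8a1, Col12a1 and Col17a1) are fitted values and not measured sizes. Col1a1 is at 5.53 in WSB/EiJ and 3.99 in C3H/HeJ, Col27a1 is left of 0 in all strains, and Col5a2 and Col5a3 have opposite signs in WSB/EiJ and C3H/HeJ.

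Of the basement membrane class, 3 of 5 rose and 1 fell in WSB/EiJ, 2 rose and 1 fell in C3H/HeJ, and 1 rose in A/J. Of all genes tested, 25.4% rose and 49% fell in WSB/EiJ, 14.8% went each way in C3H/HeJ, and 3.36% rose in A/J. The gene that fell was Col4a6 by its brighter probe, and its other tested probe was called in the opposite direction in WSB/EiJ. Col4a1 (chr8:11199009-11199068, mm9) and Col4a2 (chr8:11448840-11448899, mm9) form the classical type IV trimer. Col4a1 control levels were 0.42, 0.49, 0.43 and 1.01 in WSB/EiJ, -0.26, -0.50, -0.17 and -0.08 in C3H/HeJ and -0.11, -0.07, -0.66 and 0.15 in A/J. Its deficient levels were 2.56, 2.59, 2.02 and 2.23 in WSB/EiJ, 1.39, 1.37, 0.74 and 0.53 in C3H/HeJ and 0.87, 0.38, 1.22 and 0.36 in A/J. The diets did not overlap in any strain. Col4a1 rose 3.40-fold in WSB/EiJ (adjusted p = 4.51e-05) and 2.39-fold in C3H/HeJ (adjusted p = 0.00472), and its 1.84-fold difference in A/J missed the threshold (adjusted p = 0.0703). It was 0.0411 without both arrays numbered 4, which were picked by their levels, so that value does not test a rise.

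Col4a2 was the collagen called higher in A/J. Its control levels were 1.31, 1.59, 1.44 and 2.04 in WSB/EiJ, 0.95, 0.98, 1.16 and 1.30 in C3H/HeJ and 0.84, 0.73, 0.16 and 0.87 in A/J. Its deficient levels were 2.85, 2.73, 2.31 and 2.52 in WSB/EiJ, 2.03, 1.99, 1.59 and 1.36 in C3H/HeJ and 1.49, 1.25, 1.58 and 1.43 in A/J, all above the controls of the same strain. The log2 changes of 1.01 ± 0.18 in WSB/EiJ (adjusted p = 0.00109), 0.64 ± 0.18 in C3H/HeJ (adjusted p = 0.0277) and 0.79 ± 0.17 in A/J (adjusted p = 0.0381) lay close together. The largest difference between strains was 0.37 ± 0.26 (WSB/EiJ minus C3H/HeJ, adjusted p = 0.31), which does not show that the strains were alike. The call was lost on leaving out any of 5 of the 8 arrays in A/J (adjusted p up to 0.11) and any of 5 of the 8 in C3H/HeJ (up to 0.0779).

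The minor type IV chains, which the kidney and other specialised membranes use, went separate ways. Col4a5 (chrX:138123547-138123606, mm9) had control levels of -4.08, -3.19, -3.51 and -3.63 in WSB/EiJ, -0.97, -1.05, -2.18 and -2.33 in C3H/HeJ and -3.47, -4.17, -3.47 and -2.65 in A/J. On the deficient diet it was at -0.03, -0.27, -1.81 and -0.53 in WSB/EiJ, -1.67, -1.24, -1.33 and -1.48 in C3H/HeJ and -3.76, -3.31, -3.70 and -3.73 in A/J. The WSB/EiJ groups did not overlap and those of the other strains did. It rose 7.70-fold in WSB/EiJ (log2 change 2.94 ± 0.38, adjusted p = 0.000172), more than in A/J by 3.13 ± 0.51 (adjusted p = 0.000227) and than in C3H/HeJ by 2.74 ± 0.53 (adjusted p = 0.00283). The changes in C3H/HeJ (0.20) and A/J (-0.19) did not pass.

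Col4a6 gave no settled direction. The brighter of its 2 tested probes (chrX:137601433-137601491, mm9) read 0.10, -0.03, -0.47 and -0.43 in WSB/EiJ controls and -2.19, -1.66, -1.43 and -1.80 on the deficient diet. In C3H/HeJ it read -0.49, -0.43, -0.60 and -0.76 in controls and -1.31, -1.61, -1.46 and -1.24 on the deficient diet, and in A/J -1.0, -0.23, -0.42 and -0.64 against -0.91, -1.0, -1.26 and -0.54. By this probe Col4a6 fell by 1.56 in WSB/EiJ (adjusted p = 0.000132) and by 0.84 in C3H/HeJ (adjusted p = 0.00314). The dimmer probe (chrX:137599990-137600049, mm9), well above background on all arrays of the WSB/EiJ deficient group and no other, rose by 2.95 in WSB/EiJ (adjusted p = 0.00206). Of the 7 collagens with more than 1 tested probe, Col4a6 was the 1 whose probes passed in opposite directions. Col4a4 (chr1:82515563-82515622, mm9) lay between -3.59 and -2.65 in all 24 arrays, and its log2 changes of 0.04, 0.06 and -0.08 passed in no strain.

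All 4 tested chains of type VI collagen rose in WSB/EiJ and in C3H/HeJ, with median log2 changes of 2.96 and 2.10, and none passed in A/J (median 0.52). Of all genes tested, 25.4% rose in WSB/EiJ, 14.8% in C3H/HeJ and 3.36% in A/J. Col6a3 (chr1:92663663-92663722, mm9), the longest of the classical chains, had control levels of -0.32, -0.44, -0.23 and 0.01 in WSB/EiJ, -0.38, -0.57, -0.79 and -0.70 in C3H/HeJ and -0.60, -0.44, -0.75 and 0.17 in A/J. Its deficient levels were 3.90, 3.85, 2.43 and 3.67 in WSB/EiJ, 2.17, 2.40, 1.53 and 0.67 in C3H/HeJ and 0.78, 0.16, 1.04 and -0.33 in A/J. The diets overlapped in A/J through the arrays numbered 4 and in no other strain. It rose 13.1-fold in WSB/EiJ (adjusted p = 1.71e-05) and 4.94-fold in C3H/HeJ (adjusted p = 0.00267), with a log2 change of 0.82 ± 0.33 in A/J (adjusted p = 0.16). The A/J adjusted p was 0.0251 without both arrays numbered 4, which were picked by their levels, so that value does not test a rise.

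Col6a1 (chr10:76171538-76171597, mm9), present in every type VI trimer, was at 0.06, -0.12, -0.01 and 0.46 in WSB/EiJ controls, -0.31, -0.56, -0.87 and -1.34 in C3H/HeJ controls and -0.48, -0.39, -0.60 and 0.96 in A/J controls. On the deficient diet it was at 3.13, 2.72, 2.22 and 2.43 in WSB/EiJ, 1.46, 1.75, 1.22 and 0.04 in C3H/HeJ and 0.95, 0.18, 1.03 and 0.02 in A/J. It rose 5.78-fold in WSB/EiJ (adjusted p = 1.47e-05) and 3.70-fold in C3H/HeJ (adjusted p = 0.00822). Its partner Col6a2 rose 3.58-fold in WSB/EiJ, and in C3H/HeJ 3.59-fold from controls of which 2 of 4 were well above background. The A/J log2 changes of 0.67 for Col6a1 and 0.35 for Col6a2 did not pass, and both passed without both arrays numbered 4 (1.21 and 0.89). Those arrays were picked by their levels, so the passes do not show a rise in A/J.

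Col6a5, an alternative to Col6a3 in the trimer, was near the detection limit on the control diet. Its levels were -5.76, -4.44, -4.90 and -4.92 in WSB/EiJ controls and -4.13, -4.82, -5.68 and -4.11 in C3H/HeJ controls, none well above background, and -3.43, -4.07, -3.89 and -2.41 in A/J controls, 1 of them above it. On the deficient diet it was at -1.04, -1.40, -2.38 and -1.65 in WSB/EiJ, -0.87, -1.80, -1.49 and -2.80 in C3H/HeJ and -2.96, -2.80, -2.38 and -4.19 in A/J. Col6a5 was at least 5.46-fold higher on the deficient diet in WSB/EiJ (adjusted p = 4.46e-05) and at least 4.58-fold in C3H/HeJ (adjusted p = 0.00329). Col6a5 entered the tests through these deficient groups alone, so both p-values describe and do not support a rise. The A/J log2 change was 0.37 (adjusted p = 0.65), and 1.08 without both arrays numbered 4 (adjusted p = 0.0299). Those arrays were picked by their levels, so the second p-value does not test a rise.

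Among the fibril-associated collagens, Col12a1, Col14a1 and Col16a1 rose in WSB/EiJ and C3H/HeJ, while Col9a2, Col20a1 and Col22a1 fell in WSB/EiJ. Col14a1 (chr15:55352264-55352323, mm9) had control levels of 3.57, 3.75, 3.52 and 3.93 in WSB/EiJ, 3.49, 3.59, 3.01 and 2.81 in C3H/HeJ and 3.98, 4.42, 3.67 and 4.44 in A/J. Its deficient levels were 5.28, 5.29, 5.01 and 5.24 in WSB/EiJ, 4.80, 5.01, 4.59 and 3.92 in C3H/HeJ and 4.93, 4.45, 4.73 and 4.35 in A/J. It rose 2.85-fold in WSB/EiJ (adjusted p = 9.47e-06) and 2.56-fold in C3H/HeJ (adjusted p = 0.00801), and its 2 tested probes gave nearly the same changes (1.5 and 1.51 in WSB/EiJ). Without both arrays numbered 4, Col12a1 and Col16a1 also passed in A/J, at log2 changes of 1.36 (adjusted p = 0.0426) and 1.0 (adjusted p = 0.0363). Those arrays were picked by their levels, so these p-values do not test a rise. Col16a1 rose 3.29-fold in WSB/EiJ and 2.39-fold in C3H/HeJ. Col12a1 rose 11.04-fold in WSB/EiJ from controls of which 2 of 4 were well above background, and at least 2.14-fold in C3H/HeJ from controls that were all below it. Col12a1 entered the tests through deficient groups alone, so its calls describe and do not support a rise.

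Col20a1, a little-studied member of this group, fell in A/J and in WSB/EiJ. Its levels at chr2:180750502-180750561 (mm9) were -0.69, -0.56, -0.69 and -0.54 in A/J controls and -1.69, -1.71, -1.63 and -1.38 on the deficient diet, without overlap. In WSB/EiJ they were -0.83, -0.96, -0.68 and -0.47 in controls and -2.89, -2.92, -2.31 and -3.28 on the deficient diet, and in C3H/HeJ -2.26, -2.01, -1.79 and -1.79 against -1.70, -3.05, -3.51 and -3.07. Array 1 of the C3H/HeJ deficient group alone stood above its controls. It fell by 0.98 ± 0.10 on the log2 scale in A/J (adjusted p = 0.00401) and by 2.11 ± 0.20 in WSB/EiJ (adjusted p = 3.35e-05). The C3H/HeJ change of -0.87 ± 0.35 missed the threshold (adjusted p = 0.0896), and was -1.25 (adjusted p = 0.00639) without C3H/HeJ deficient 1. The other tested probe of Col20a1 fell by 1.56 in C3H/HeJ (adjusted p = 0.000325). With spike-in scaling the falls in A/J and WSB/EiJ remained called, at -0.62 and -1.25.

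Col18a1, the endostatin precursor that hepatocytes make, fell in WSB/EiJ by both of its tested probes. Its levels at chr10:76515790-76515849 (mm9) were 7.86, 7.89, 7.80 and 7.90 in WSB/EiJ controls and 6.93, 7.06, 7.27 and 6.82 on the deficient diet. They were 7.81, 7.81, 7.72 and 7.72 in C3H/HeJ controls, 7.29, 7.20, 7.59 and 7.64 on the deficient diet, and 7.83, 7.82, 7.72 and 7.49 against 7.54, 7.60, 7.43 and 7.78 in A/J. It fell by 0.84 ± 0.10 on the log2 scale in WSB/EiJ (adjusted p = 0.000126), and for this probe with spike-in scaling this became 0.02 in the other direction (adjusted p = 0.892). The dimmer probe (chr10:76514926-76514985, mm9) fell by 1.32 in WSB/EiJ (adjusted p = 2.48e-05) and by 0.71 in C3H/HeJ (adjusted p = 0.0238), and was at -0.27 in A/J (adjusted p = 0.258). The WSB/EiJ falls of Col7a1, the anchoring fibril collagen (-0.66), and Col9a2 (-0.77) also turned with that scaling, to 0.21 and 0.10, while those of Col5a2, Col22a1 and Col4a6 kept their sign (-1.08, -0.67 and -0.69). In C3H/HeJ the brighter probe of Col18a1 passed when array 4 of the deficient group was left out (-0.41, adjusted p = 0.0338). All 10 hepatocyte markers fell in WSB/EiJ, between -1.90 and -0.96, beside the fall of Col18a1, and their part in it was not tested. Col8a1, a short-chain network collagen, was at least 2.68-fold higher in WSB/EiJ on the deficient diet (adjusted p = 4.96e-05), from controls below background. Col8a1 entered the tests through the WSB/EiJ deficient group alone, so this p-value describes and does not support a rise. Col17a1, a transmembrane collagen, was called lower in WSB/EiJ (-1.41 ± 0.40, adjusted p = 0.0117), where 1 of 8 arrays was well above background, and was at -0.55 with spike-in scaling (adjusted p = 0.211).

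**Figure D3:**
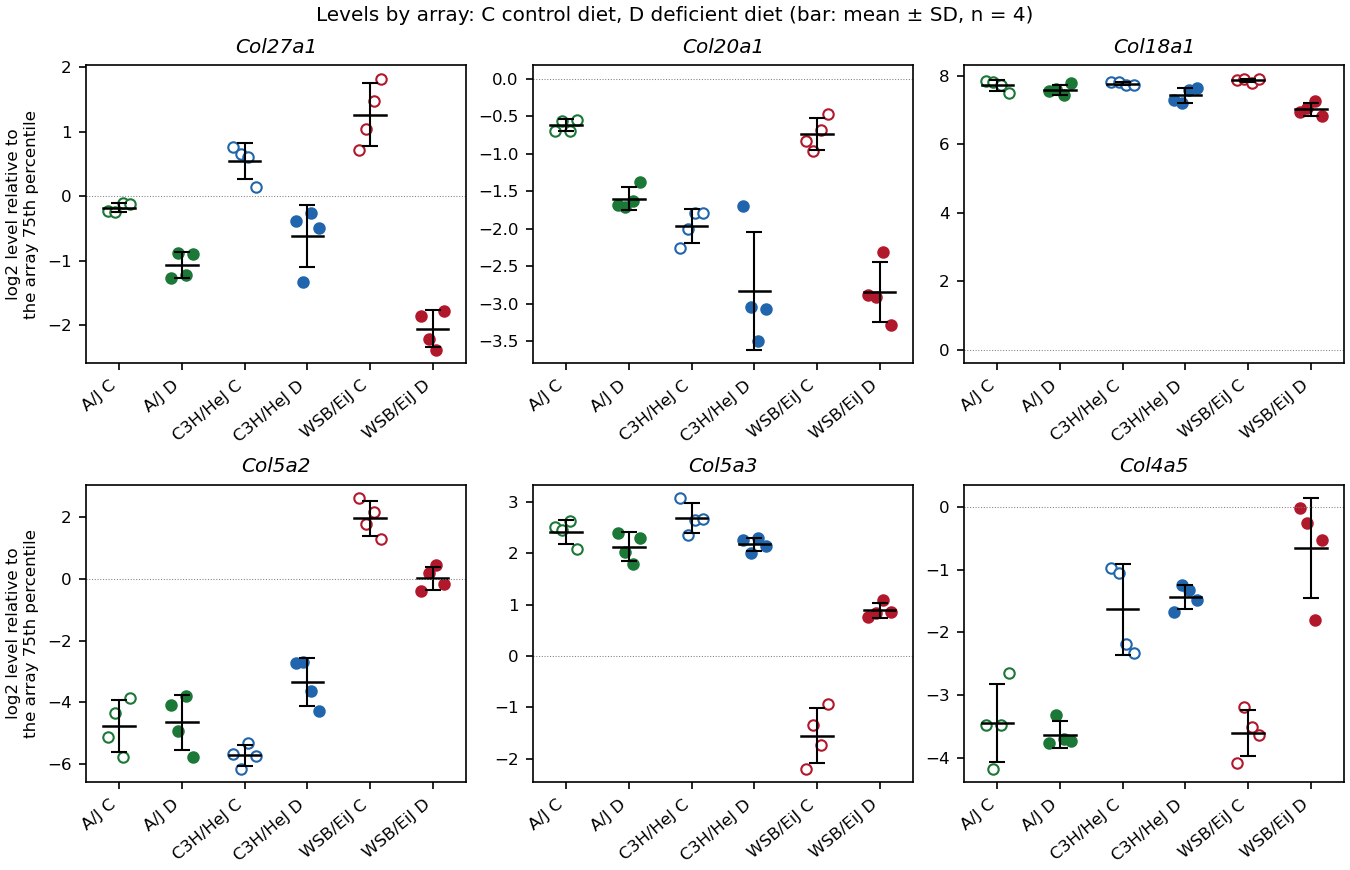
Level of 6 collagen genes in each array; axes and symbols are as in the plot of the rising genes (log2 level relative to the array's 75th percentile, open control, filled deficient, mean ± SD of 4 arrays). Col27a1 falls in all strains without overlap, Col5a2 is between 1.31 and 2.63 in WSB/EiJ controls and at -3.88 or lower in A/J and C3H/HeJ controls, and Col5a3 and Col4a5 rise in WSB/EiJ.

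The difference of the diet effects was tested for each pair of strains. WSB/EiJ differed from A/J in 21 of the 27 collagens, 15 with a more positive change and 6 with a more negative one, where 53.4% of all genes differed (17.9% more positive and 35.5% more negative). WSB/EiJ differed from C3H/HeJ in 8, 3 more positive (Col5a3, Col4a5 and Col8a1) and 5 more negative (Col5a2, Col27a1, Col17a1, Col18a1 and, by its brighter probe, Col4a6), where 22.2% of all genes differed (8.89% more positive and 13.3% more negative). For the main fibrous chains this second difference did not pass: 1.54 ± 0.67 for Col1a1 (adjusted p = 0.109), 1.32 ± 0.46 for Col1a2 (adjusted p = 0.0511) and 1.07 ± 0.47 for Col3a1 (adjusted p = 0.114). C3H/HeJ differed from A/J in 0 collagens at the adjusted threshold of limma and in 11 at an unadjusted p under 0.05, where 1.47% of all genes differed at the adjusted threshold (0.997% more positive and 0.469% more negative) and 16.7% at the unadjusted one. Leaving out C3H/HeJ deficient 4 raised the count at the adjusted threshold to 5, where 3.11% of all genes were more positive and 3.43% more negative. With limma's array weights it was 7 (4.71% and 6.15%). Without C3H/HeJ deficient 2, 13 collagens differed between WSB/EiJ and C3H/HeJ (10.5% of all genes more positive and 17.2% more negative), and without WSB/EiJ deficient 4, 5 did (7.3% and 9.07%). Spike-in scaling gave 16 more positive and 2 more negative for WSB/EiJ against A/J (30.6% and 7.57% of all genes) and 3 and 2 against C3H/HeJ (12.2% and 3.27%). Against C3H/HeJ, median centring gave 5 and 3 (9.66% and 5.31%), quantile normalization alone 3 and 4 (10.8% and 7.92%), and normexp background correction together with quantile normalization 6 and 5 (12.1% and 7.12%). These comparisons share arrays, and a call in 1 strain and none in another was not read as a difference.

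**Figure D4:**
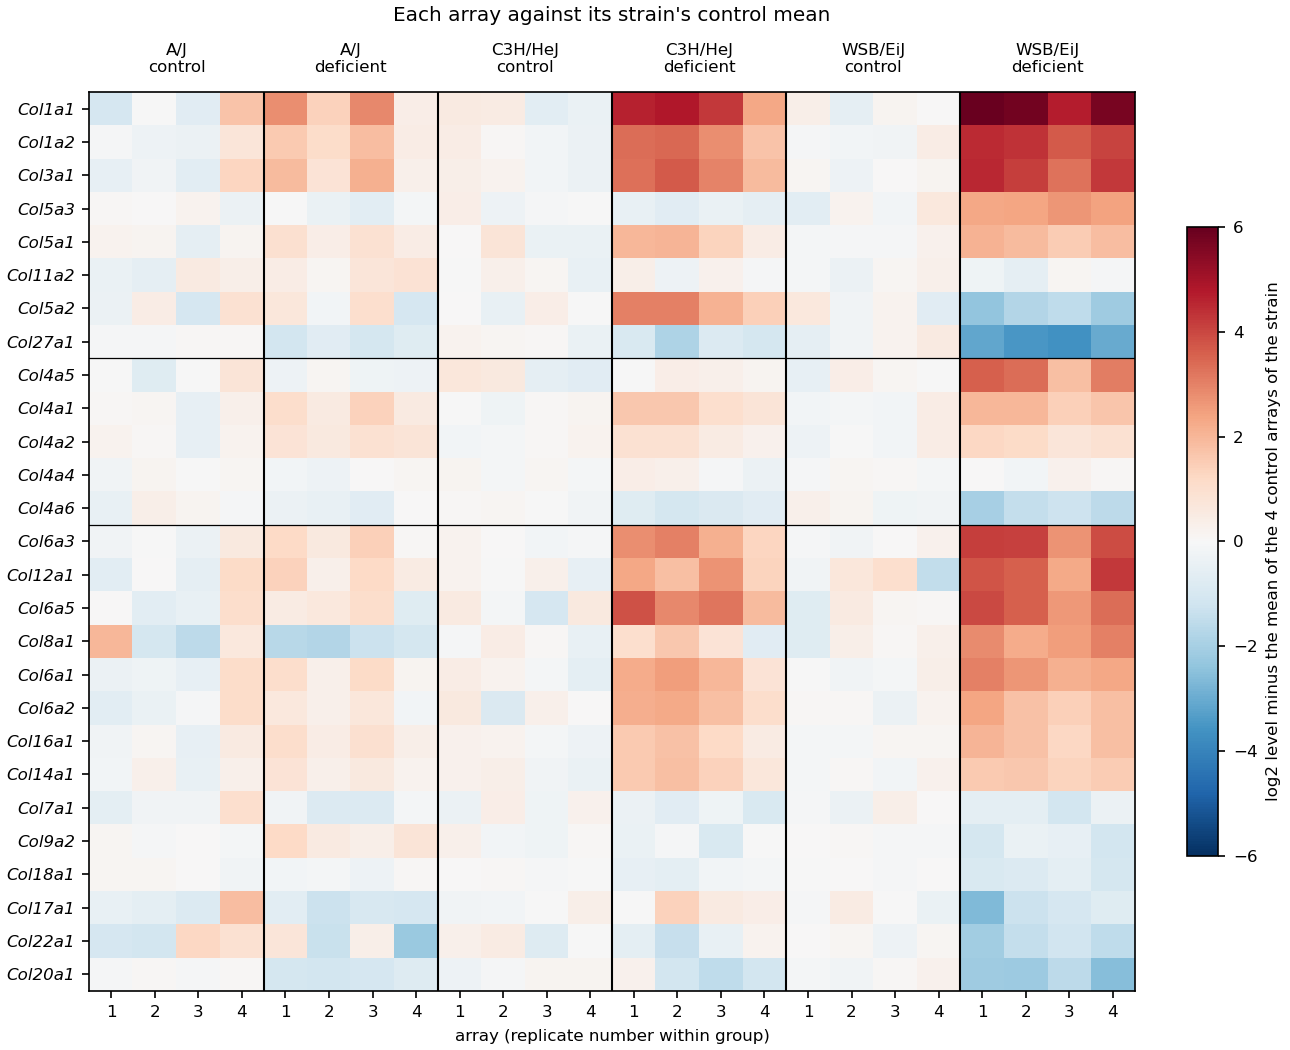
Each tested collagen in each of the 24 arrays, as its log2 level minus the mean of the 4 control arrays of the same strain (red higher, blue lower); columns are arrays by group and replicate number, and lines part the classes. A/J control 4 is red in the rows of Col1a1, Col1a2, Col3a1 and type VI while the other A/J controls are pale or blue there, and Col27a1 and Col20a1 are blue in all 4 A/J deficient arrays.

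The arrays came from 3 slides of 8, each holding arrays of every group. The median collagen change was 1.84, 1.35 and 1.73 within slides 1 to 3 in WSB/EiJ, 0.72, 0.99 and 1.22 in C3H/HeJ and 0.74, 0.40 and 0.50 in A/J. Within the same slides the median of all genes tested was between -0.29 and -0.25 in WSB/EiJ, between -0.20 and -0.06 in C3H/HeJ and between -0.06 and -0.03 in A/J. With slide as a block 16 rose and 9 fell in WSB/EiJ (25.6% and 48.3% of all genes) and 14 and 3 in C3H/HeJ (15.9% and 18.8%), as without it. In A/J 7 rose in place of 1, where 8.47% of all genes rose in place of 3.36%.

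On the control diet WSB/EiJ differed most from the other strains in Col5a2 and Col5a3, chains of type V collagen. Col5a2 was at least 62.7-fold higher in WSB/EiJ than in C3H/HeJ, and 6.75 ± 0.44 log2 units above A/J in the fit, where 1 of 4 A/J controls was well above background, while Col5a3 was lower by 4.24 ± 0.27 and 3.97 ± 0.26. A base difference under either probe would enter these values and was not tested. The main chain Col5a1 had control means of 0.08 in WSB/EiJ, -0.74 in C3H/HeJ and -0.07 in A/J. The main fibrous chains Col1a1, Col1a2 and Col3a1 passed in none of the 3 control comparisons (log2 differences between -0.53 and 0.41). WSB/EiJ controls differed from A/J controls in 12 collagens (9 higher, 3 lower), where 47.3% of all genes differed (28.8% higher, 18.6% lower), and from C3H/HeJ controls in 15 (12 higher, 3 lower), where 40.9% did (22.8% higher, 18.1% lower). C3H/HeJ controls differed from A/J controls in 5 (2 higher, 3 lower), where 19% of all genes did (10.9% higher, 8.08% lower), and in 3 without both A/J arrays numbered 4 (8.9% and 6.7%). Spike-in scaling gave 5 higher and 4 lower for WSB/EiJ against A/J (11.2% and 26.8% of all genes) and 8 and 3 against C3H/HeJ (12.8% and 26.7%). Among the called genes, Col27a1 was higher in C3H/HeJ than in A/J by 0.73 ± 0.14 and in WSB/EiJ than in A/J by 1.44 ± 0.22, and it was higher in WSB/EiJ than in C3H/HeJ by 0.72 ± 0.25 (adjusted p = 0.0482). Without overlap between the groups, WSB/EiJ controls lay above A/J controls for 8 collagens and below for 3 (29.3% and 17.3% of all genes), and above C3H/HeJ controls for 9 and below for 3 (24.1% and 18.2%). On the deficient diet the 4 WSB/EiJ arrays were the lowest of all for Col27a1. Col4a5 was higher in C3H/HeJ controls than in A/J by 1.80 ± 0.42 and than in WSB/EiJ, where it was lower by 1.97 ± 0.35, and Col20a1 was lower in C3H/HeJ than in A/J by 1.34 ± 0.13.

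Collagen genes often lie side by side, and 8 pairs of members are next neighbours among the protein-coding genes of GRCm38.p6. For 4 pairs both were tested, and their diet effects are set side by side here. Col4a1 and Col4a2 lie on opposite strands, and their RefSeq windows share 78 bases when the 50 bases after each start are counted in. Both genes rose in WSB/EiJ (1.76 and 1.01) and C3H/HeJ (1.26 and 0.64). Col6a1 and Col6a2 both rose in WSB/EiJ (2.53 and 1.84) and C3H/HeJ (1.89 and 1.84). Col3a1 and Col5a2 both rose in C3H/HeJ (2.98 on the log2 scale, and at least 1.58-fold for Col5a2), but in WSB/EiJ Col3a1 rose by 4.04 and Col5a2 fell by 1.95. Col4a5 and Col4a6 parted in WSB/EiJ, at 2.94 and -1.56 by the brighter Col4a6 probe.

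Genes that process, link and bind collagen were counted from lists chosen by function. Beside these counts and those of the marker lists below stand the shares of all genes tested. In WSB/EiJ 25.4% rose and 49% fell, in C3H/HeJ 14.8% in each direction, and in A/J 3.36% and 2.75%. A count near these shares is not a result about its list. Of 6 cross-linking enzymes tested, 6 rose in WSB/EiJ and 3 in C3H/HeJ, with median log2 changes of 2.72 and 0.78, and none passed in A/J. Tgm2, a transglutaminase, rose by 1.55 ± 0.10 in WSB/EiJ and 0.89 ± 0.20 in C3H/HeJ. The lysyl oxidase Loxl1 rose by 3.29 ± 0.31 and 2.07 ± 0.55, and Loxl4 was at least 6.09-fold higher in WSB/EiJ, its C3H/HeJ change of 1.42 ± 0.35 resting on groups with 2 and 0 arrays above background. Of 20 genes of hydroxylation, glycosylation and folding, 8 rose and 9 fell in WSB/EiJ, 5 and 4 in C3H/HeJ and 1 and 1 in A/J. Serpinh1, the collagen chaperone HSP47, rose by 2.04 ± 0.25 in WSB/EiJ and 1.76 ± 0.21 in C3H/HeJ, and the prolyl isomerase Fkbp10 by 2.85 ± 0.17 and 1.84 ± 0.28. The prolyl hydroxylase P4ha3 fell by 0.99 ± 0.20 and 0.78 ± 0.13. In A/J the log2 changes of these genes were 0.30, 0.78 and -0.30, and none passed.

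Of 13 genes of secretion and propeptide removal, 3 rose and 7 fell in WSB/EiJ, near the shares of all genes (25.4% and 49%). In C3H/HeJ 3 rose and 1 fell (14.8% in each direction), and 1 rose in A/J (3.36%). That gene was Adamts14, a protease that trims the N-terminal propeptide of fibrillar procollagens, with log2 changes of 1.52 ± 0.16 in A/J (adjusted p = 0.00434), 0.98 ± 0.21 in C3H/HeJ and 2.37 ± 0.20 in WSB/EiJ. Pcolce, an enhancer of C-propeptide removal, rose by 1.17 ± 0.17 in WSB/EiJ and 1.06 ± 0.25 in C3H/HeJ, while the C-proteinase Bmp1 fell by 1.13 ± 0.10 and 0.58 ± 0.16. Of 20 collagen-binding matrix proteins, 15 rose and 2 fell in WSB/EiJ, 10 and 0 in C3H/HeJ, and 1 and 1 in A/J. The thrombospondin Thbs1 was at least 5.03-fold higher in C3H/HeJ and rose by 4.53 ± 0.31 in WSB/EiJ, the basement membrane linker Nid1 rose by 2.89 ± 0.09 in WSB/EiJ and 2.76 ± 0.31 in C3H/HeJ, and periostin, Postn, by 2.89 ± 0.19 and 1.95 ± 0.29. Of 8 collagen receptors and uptake genes, 7 rose and 1 fell in WSB/EiJ and 5 rose in C3H/HeJ. The receptor kinase Ddr1 rose by 4.64 ± 0.23 in WSB/EiJ and 3.84 ± 0.49 in C3H/HeJ, the inhibitory receptor Lair1 by 2.93 ± 0.13 and 1.72 ± 0.32, and the uptake receptor Mrc2 by 3.15 ± 0.25 and 2.14 ± 0.42.

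Markers of the cells that could carry these genes moved with the diet too, and their part in the collagen changes was not tested; in whole liver, fewer cells of a type and less RNA per cell cannot be told apart. The tissue matched its label, with the 10 hepatocyte markers summing to between 12.09 and 13.48 on the log2 scale in every array. Alb, the albumin gene, fell by 0.96 ± 0.08 in WSB/EiJ and was at -0.46 ± 0.20 in C3H/HeJ and -0.40 ± 0.13 in A/J. Of these 10, 10 fell in WSB/EiJ, 4 in C3H/HeJ and 1 in A/J, where 49%, 14.8% and 2.75% of all genes fell. Of 9 portal fibroblast markers, 8 rose in WSB/EiJ and 6 in C3H/HeJ, their sum going from 2.29 to 2.74 in controls to 4.43 to 5.23 in WSB/EiJ and from 2.57 to 2.68 to 3.64 to 4.77 in C3H/HeJ. In A/J none passed, and the sums overlapped, 2.08 to 3.75 against 2.43 to 3.36. Without both arrays numbered 4 they were 2.08 to 2.37 against 2.80 to 3.36, with no overlap. Those arrays held the highest control sum and the lowest deficient sum. Leaving them out therefore had to move the groups apart, and this does not show a rise in A/J. Thy1, the first of that list, rose by 2.69 ± 0.34 in WSB/EiJ and 1.66 ± 0.34 in C3H/HeJ, and was at 0.27 ± 0.40 in A/J.

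Of 13 stellate cell markers, 9 rose and 1 fell in WSB/EiJ, 4 rose in C3H/HeJ and 3 in A/J. Their sum overlapped between diets in WSB/EiJ (7.26 to 7.42 in controls, 7.20 to 7.47 on the deficient diet) and in C3H/HeJ (6.23 to 6.82 and 6.52 to 7.34), and did not overlap in A/J (6.43 to 7.04 and 7.08 to 7.40). Lrat, the retinol-storing enzyme that defines quiescent stellate cells, rose by 0.82 ± 0.11 in A/J (adjusted p = 0.00904) and 0.99 ± 0.22 in WSB/EiJ. Of 6 smooth muscle and myofibroblast markers, 1 rose and 1 fell in WSB/EiJ and 1 rose in C3H/HeJ, the riser being Acta2 in both (1.48 ± 0.33 and 1.31 ± 0.42), and in A/J Acta2 was at -0.88 ± 0.56. Their sum overlapped between diets in WSB/EiJ (5.13 to 5.43 and 5.18 to 5.53) and C3H/HeJ (4.44 to 5.32 and 4.59 to 5.16), and in A/J it was 5.07 to 6.0 in controls against 4.26 to 5.0.

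Of 9 macrophage markers, 6 rose in WSB/EiJ, 7 in C3H/HeJ and 2 in A/J, with sums of 4.93 to 5.19 in WSB/EiJ controls against 7.22 to 7.46, 5.62 to 6.16 in C3H/HeJ controls against 6.59 to 7.12 and 6.30 to 7.13 in A/J controls against 7.16 to 7.45. Of 7 biliary markers, 5 rose in WSB/EiJ and 3 in C3H/HeJ, and 1 fell in A/J; Krt19 rose by 2.37 ± 0.51 and 1.09 ± 0.35 in the first pair. The biliary sum did not overlap between diets in any strain, at 2.22 to 2.69 in WSB/EiJ controls against 3.78 to 5.92, 2.14 to 2.48 in C3H/HeJ controls against 2.66 to 4.92 and 2.22 to 2.56 in A/J controls against 2.74 to 3.57. Of 12 liver endothelial markers, 3 rose and 5 fell in WSB/EiJ, near the shares of all genes (25.4% and 49%). In C3H/HeJ 3 rose and 1 fell (14.8% in each direction), 1 rose in A/J (3.36%), and Pecam1 passed in none. The endothelial sum went from between 5.66 and 5.93 to between 5.15 and 5.69 in WSB/EiJ, and overlapped also in C3H/HeJ (5.56 to 5.97 and 5.77 to 6.14) and A/J (6.03 to 6.38 and 6.27 to 6.71). Of the 6 cartilage markers, Matn1, Matn3 and Cnmd were not well above background on all arrays of any group and Acan fell in WSB/EiJ and C3H/HeJ, while Hapln1 rose by 3.17 ± 0.56 in WSB/EiJ and was at least 3.84-fold higher in C3H/HeJ. The cartilage sum was -0.43 to 0.45 in WSB/EiJ controls against 0.63 to 1.97, -1.72 to -1.09 in C3H/HeJ controls against -0.92 to -0.85, and -1.42 to -1.06 in A/J controls against -2.40 to -1.40. Sox9, which biliary cells also express, rose by 1.58 ± 0.40 in WSB/EiJ and fell by 0.76 ± 0.16 in A/J. Of 6 pancreas markers tested, 2 rose and 1 fell in WSB/EiJ and 1 fell in C3H/HeJ, while Cela1, the first of that list, passed in none. The pancreas sum overlapped between diets in WSB/EiJ (3.98 to 4.55 and 3.39 to 5.15), C3H/HeJ (3.47 to 4.12 and 3.20 to 3.94) and A/J (4.05 to 4.70 and 4.03 to 5.79). Of the mesothelial pair Wt1 rose in both strains and Msln did not pass, and their sum was -1.93 to 0.35 in WSB/EiJ controls against 0.49 to 1.67, and overlapped in C3H/HeJ and A/J. The adipose marker Cfd passed in no strain.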

How the data were processed

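Liver RNA of 24 mice was read on 1-colour Agilent arrays. The spot intensities are the authors' deposited scanner output, extracted with Agilent Feature Extraction 10.7 per the submitters' processing notes, background-subtracted and detrended within each array per the file headers. The deposited flags (other) mark spots above background, saturated or outlying. The deposited value table held the same intensities times 1 constant per array and was used for tests only as an alternative.

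Here outlier spots were removed (7 of 3332 lay on collagen probes), spots of a probe were averaged, and log2 intensity minus the array's 75th percentile was taken as the level. Each gene was represented by its brightest tested probe. Tests used limma 3.58.1 in R 4.3.3 with the compared groups in the fit and Benjamini-Hochberg adjustment over 15551 genes, in 9 comparisons at a threshold of 0.05. On simulated data, 88%, 80% and 86% of genes changed 2-fold were recovered for the diet effects in A/J, C3H/HeJ and WSB/EiJ, and 5.05%, 5.79% and 4.17% of calls were false. The simulation changed few genes, drew the noise of each gene independently and pulled its spread towards that of the median gene. In A/J controls the median SD within the group was 0.49 for the collagens and 0.19 for all genes. The recovery is therefore not that of the collagens. The number of arrays limits the precision.

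Values in every sample were given for the members with the lowest p over the 3 diet effects in each class, those that differed most between strains and those called lower. From each pathway list the 3 genes with the lowest adjusted p in C3H/HeJ were named. From the marker lists the sum and first gene were given, except that the first macrophage gene was left out. The first adipose gene, Adipoq, was not tested, and the adipose sum was given for A/J controls alone. Sox9, Hapln1, Wt1 and Acan, and the members outside these rules, were chosen after their values were seen. The members and lists were chosen with earlier results of these data known. Alternatives covered scaling, the deposited value table, background correction, the filter, the probe rule, the fit, the slide and replicate blocks, array weights and left-out arrays. 2 probes named Emid2, a gene RefSeq calls Col26a1, fell outside the naming rule. Exon and UTR annotation of mm9 was not used here.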

Additional observations from a re-analysis of the deposited data

Results flagged for a closer look

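Of 162 sets of 4 arrays (27 collagens in 6 groups), 6 had 1 array far from the other 3, where chance gives about 1 in 20. In the A/J control group array 4 was high for Col17a1 (-0.27) and Col6a1 (0.96), and array 3 was low for Col5a1 (-0.62). In A/J on the deficient diet array 2 was high for Col4a5 (-3.31). In WSB/EiJ, control array 4 was high for Col4a1 (1.01) and deficient array 3 was low for Col6a3 (2.43).

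The diet effect of 21 collagens differed between WSB/EiJ and A/J by limma's test of the difference. It was more positive in WSB/EiJ, on the log2 scale, by 3.67 for Col1a1, 3.13 for Col4a5, 2.92 for Col1a2, 2.89 for Col6a3, 2.76 for Col3a1, 2.73 for Col5a3, 2.61 for Col12a1, 1.86 for Col6a1, 1.49 for Col6a2, 1.16 for Col5a1, 1.03 for Col14a1, 1.02 for Col16a1 and 0.88 for Col4a1. It was more positive too for Col8a1 (fitted 4.07) and Col6a5 (fitted 3.02), whose sizes rest on groups with no array well above background. It was more negative for Col27a1 (-2.43), Col5a2 (-2.07), Col9a2 (-1.49), Col4a6 (-1.21), Col20a1 (-1.14) and Col18a1 (-0.72). Between WSB/EiJ and C3H/HeJ, 8 differed: Col5a3 (2.95) and Col4a5 (2.74) were more positive in WSB/EiJ, and Col27a1 (-2.15), Col4a6 (-0.72) and Col18a1 (-0.51) more negative. Col8a1 (fitted 1.94) was also more positive and Col5a2 (fitted -4.33) and Col17a1 (fitted -1.99) more negative, with 1 group or more in which no array was well above background, so these sizes are not measured values. Col8a1, Col6a5 and Col12a1 entered the tests through deficient groups alone, so their differences describe and do not support a direction. The Col4a6 values are those of its brighter probe, while its dimmer probe rose by 2.95 in WSB/EiJ.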

How the results depend on the processing

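In A/J 1 collagen rose, where 3.36% of all genes did. The count was 7 with spike-in scaling (19.8% of all genes), 0 with no filter (0.713%) and 3 with probes above background on all arrays (4.57%). It was 4 with all arrays in the fit (5.94%), 7 with the slide block (8.47%) and 8 with array weights (8.03%). It was 0 at an adjusted p of 0.01 (0.424%), 11 without both arrays numbered 4 (8.31%), and 0 to 2 on leaving out each array (0.887% to 5.57%). With the replicate block the A/J counts were 0 higher and 0 lower (0.161% and 0.0707% of all genes). They were 13 and 2 in C3H/HeJ (12.1% and 7.59%) and 16 and 9 in WSB/EiJ (24.0% and 45.5%). Same-numbered arrays had correlations from -0.35 to 0.07, so the numbers were not taken as pairing. In C3H/HeJ the 3 falls became 0 with spike-in scaling (3.1% of all genes fell), 5 with all arrays in the fit (27.1%) and 1 at 0.01 (3.23%). The 9 falls in WSB/EiJ became 5 with spike-in scaling (8.44% of all genes fell) and 15 with no filter (51.1%). With probes above background on all arrays, 17 collagens were tested. Of these, 11 rose and 6 fell in WSB/EiJ (20.0% and 56.6% of all genes), and 10 rose and 3 fell in C3H/HeJ (11.2% and 19.0%). Leaving out each array gave 2 to 2 falls in A/J, 12 to 15 rises and 2 to 3 falls in C3H/HeJ, and 16 to 16 and 9 to 9 in WSB/EiJ.

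The 0 differences between C3H/HeJ and A/J became 2 with all arrays in the fit, where 2.13% of all genes were more positive and 1.31% more negative. They became 7 with array weights (4.71% and 6.15%) and 0 to 5 on leaving out each array (0.341% to 3.11% and 0.18% to 3.43%). The 8 between WSB/EiJ and C3H/HeJ became 5 with spike-in scaling (12.2% and 3.27% of all genes) and 4 at 0.01 (4.39% and 4.73%). On leaving out arrays they became 5 to 13 (6.92% to 10.5% and 9.02% to 17.2%). The 21 between WSB/EiJ and A/J became 20 to 22 on leaving out arrays (16.2% to 18.4% and 32.2% to 36.9%). On the control diet, C3H/HeJ against A/J gave 3 with no filter, where 4.57% of all genes were higher and 3.5% lower. It gave 3 with probes above background on all arrays (13% and 8.66%) and 3 with the replicate block (6.99% and 5.34%). It gave 2 at 0.01 (4.77% and 3.54%) and 3 without both arrays numbered 4 (8.9% and 6.7%). On leaving out arrays it gave 2 to 5 (7.18% to 10.5% and 5.27% to 7.97%). WSB/EiJ against A/J gave 7 with probes above background on all arrays (33.8% and 18.8%) and 6 at 0.01 (19.4% and 12.3%). On leaving out arrays it gave 10 to 15 (25.4% to 28.1% and 16.1% to 18.9%). WSB/EiJ against C3H/HeJ gave 9 at 0.01 (14.3% and 12.0%) and 11 to 14 on leaving out arrays (18.6% to 25.8% and 15.4% to 19.8%).

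Taking the mean of the probes turned Col4a6 to 0.33 in C3H/HeJ, 0.69 in WSB/EiJ, and 1.09 and 0.36 for WSB/EiJ against A/J and C3H/HeJ. Spike-in scaling turned the WSB/EiJ changes of Col9a2 (0.10), Col18a1 (0.024) and Col7a1 (0.21), all called lower, and that of Col11a2, which was not called, to 0.68. On the control diet, WSB/EiJ minus A/J turned for Col18a1 with quantile normalization alone (-0.23) and together with normexp (-0.26) and for Col4a4 with both (0.20), and WSB/EiJ minus C3H/HeJ for Col18a1 with both (-0.25). Of 1860 single-gene diet effects under all alternatives, 1758 kept direction and side of the threshold, 49 lost and 47 gained a call, and 6 turned. The cause of these changes was not tested. Signals near background limit Col5a2, Col6a5, Col8a1, Col12a1 and Col17a1.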
